A study of Homo sapiens with 23 samples.

Results

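The interleukin-1 and interleukin-18 family was followed through 10 genes in 2 acute myeloid leukemia (AML) cell lines. They are the ligands IL1A, IL1B and IL18, the receptor antagonists IL1RN and IL36RN, the receptors IL1R1, IL1R2 and IL18R1, and the accessory chains IL1RAP and IL18RAP. A probe set was taken for a member where the array annotation gives it 1 gene symbol and that symbol is one of the 10. The rule uses no measured value, but the 10 genes were chosen with earlier results of these data known, which limits what their counts can show against those of all probe sets. All 10 members were found, with 1 probe set each, among the 17709 probe sets with 1 symbol and the 21448 probe sets tested.

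Total RNA was extracted from the human AML-derived lines HL-60 and OCI-AML3, both grown in RPMI medium with fetal bovine serum, and was hybridized to Clariom S HT arrays, which measure the RNA of annotated genes. The cells of each line were left untreated or were treated with 40 µM CIGB-300 for 30 min or 3 h. CIGB-300 is a synthetic peptide that impairs phosphorylation by the protein kinase CK2. The 23 arrays used fall into 8 groups of cell line, agent and time, each with 3 biological replicates apart from OCI-AML3 untreated at 30 min, which kept 2 after the authors removed 1 array at quality control. Controls were untreated cells at the same time, not cells given a control peptide. For the 3 later controls of OCI-AML3 the sample title gives 30h and the time field gives 3h, and 3 h was used. Each line stands for 1 leukemia, so that a difference between the lines is a difference between 2 cultures and not between AML subtypes.

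Interleukin-1 alpha and beta, encoded by IL1A and IL1B, bind the receptor IL1R1, which recruits IL1RAP to form the signaling complex. IL-18 works in the same manner through IL18R1 and IL18RAP, and both complexes signal through MYD88 and the IRAK kinases to NF-kB. The pathway is restrained by IL1RN, an antagonist that occupies IL1R1 without recruiting IL1RAP, by IL1R2, a decoy that binds the ligand and does not signal, and by IL36RN, the antagonist of the related IL-36 receptor. IL-1 beta and IL-18 are made as inactive precursors that caspase-1 cleaves within inflammasomes, so that mRNA alone does not give the amount of active cytokine. Monocytes and macrophages are a main source of IL-1 beta, and IL1RAP is known as a surface protein of AML blasts and leukemic stem cells.

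Expression is given as the deposited log2 value, on which a difference of 1 is a doubling. A probe set was called where the unadjusted p of limma was under 0.01 and the fold change was at least 1.5, the thresholds of the study for differentially expressed genes, and p-values adjusted over all 21448 probe sets stand beside each call. A background limit was set on each array at the 95th percentile of its 23 antigenomic background features and lay between 5.84 and 6.49. The medians of those features lay between 2.57 and 2.80, so the limit is set by the brightest of them and is a strict one. On all 12 HL-60 arrays 5 of 5 myeloid markers lay above it, and on all 11 OCI-AML3 arrays 4 of 5 did, MPO being above it on 4 of 11. The 3 granule protein markers were above it on every array of both lines, the HOX program markers MEIS1 and HOXB6 on every OCI-AML3 array and on no HL-60 array, and none of 4 T cell markers on any array. CD79A, a B cell marker, was above it on all 12 HL-60 arrays, with a mean of 10.71, whereas MS4A1 and PAX5 were below it on every array of both lines.

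Of the 10 members, IL1B and IL1RAP lay above the background limit on all 23 arrays. IL1RN lay above it on all 11 OCI-AML3 arrays and on none of the 12 HL-60 arrays, and IL18 on all 12 HL-60 arrays and on none of the 11 OCI-AML3 arrays. IL18RAP lay above it on 1 OCI-AML3 array, and IL1A, IL1R1, IL1R2, IL18R1 and IL36RN on none. For a value under the limit in both groups compared, a log2 difference is given and no fold change. In these bulk samples fewer expressing cells and less RNA per cell cannot be told apart.

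The promoter windows of IL1B, IL1RN and IL1RAP are shown, since the 3 members with called differences of more than 1 on the log2 scale under CIGB-300 were these. RefSeq windows of GRCh38.p14, from 250 bases before to 50 after each annotated start, matched 9 of the 10 members, with 20 windows in all. IL18 was not matched. Capitals mark matches to the motifs searched on both strands, and a match is a description of letters and not a binding site.
IL1B, chr2:112836730-112837029, minus strand: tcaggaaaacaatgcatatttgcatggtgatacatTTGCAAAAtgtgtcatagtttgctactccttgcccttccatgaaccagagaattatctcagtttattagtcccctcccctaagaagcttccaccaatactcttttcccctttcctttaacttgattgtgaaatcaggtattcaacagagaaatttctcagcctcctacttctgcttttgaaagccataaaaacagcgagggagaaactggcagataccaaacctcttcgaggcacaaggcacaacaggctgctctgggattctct
IL1RN window 1, chr2:113117721-113118020, plus strand: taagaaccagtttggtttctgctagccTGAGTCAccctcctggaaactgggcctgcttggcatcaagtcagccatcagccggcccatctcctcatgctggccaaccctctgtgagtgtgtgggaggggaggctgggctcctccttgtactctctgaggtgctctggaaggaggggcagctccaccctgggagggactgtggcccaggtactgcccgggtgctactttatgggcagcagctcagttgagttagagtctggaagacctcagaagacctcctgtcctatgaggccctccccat
IL1RN window 3, chr2:113127348-113127647, plus strand: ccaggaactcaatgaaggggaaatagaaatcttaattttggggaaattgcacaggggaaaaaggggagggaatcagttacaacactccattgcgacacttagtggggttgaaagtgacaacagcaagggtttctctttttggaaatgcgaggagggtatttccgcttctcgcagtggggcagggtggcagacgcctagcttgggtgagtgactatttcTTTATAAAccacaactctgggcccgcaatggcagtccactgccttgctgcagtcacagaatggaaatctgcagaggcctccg
IL1RAP, chr3:190513835-190514134, plus strand: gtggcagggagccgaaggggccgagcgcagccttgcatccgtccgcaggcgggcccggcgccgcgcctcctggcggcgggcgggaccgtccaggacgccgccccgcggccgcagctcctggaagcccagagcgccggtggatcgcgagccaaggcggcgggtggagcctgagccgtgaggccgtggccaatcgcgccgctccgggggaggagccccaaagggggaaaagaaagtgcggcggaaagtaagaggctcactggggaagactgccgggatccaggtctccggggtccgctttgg

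The motifs were the NF-kB consensus in its usual form, AP-1 (TGANTCA), CRE (TGACGTCA), C/EBP (TTGCNNAA), PU.1 (GAGGAA), EGR (GCGNGGGCG) and the TATA box (TATAAA). The IL1B window held 1 C/EBP match at position -215 from the start, a motif present in 10.5% of all 35116 windows. The first IL1RN window held 1 AP-1 match at -223 (7.71% of all windows), and the third held overlapping TATA box matches on both strands at -30 and -32 (11.5%). The second IL1RN window, chr2:113127239-113127538, and the IL1RAP window held no match to any of the 7 motifs. The NF-kB consensus, found in 11.3% of all windows, was present in 1 window each of IL1R2, IL18R1 and IL36RN, and the CRE motif (1.85%) in none of the members' windows. PU.1 matches (27.9% of all windows) occurred in 9 windows of 5 members, IL1R1, IL1R2, IL18R1, IL18RAP and IL36RN, and EGR matches (9.43%) in 1 window of IL1R1. Over all members, AP-1 matches occurred in 3 windows of 2 members, IL1A and IL1RN, and C/EBP matches in 2 windows of 2, IL1B and IL1R1. TATA box matches occurred in 4 windows of 4 members, IL1A, IL1RN, IL1R1 and IL1R2. In the same reference 8 of the 10 genes lie on chromosome 2. IL1R2 is next to IL1R1, IL18R1 is next to IL18RAP, IL1A is next to IL1B, and IL36RN and IL1RN lie on either side of IL1F10. IL1RAP lies on chromosome 3 and IL18 on chromosome 11.

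CIGB-300 was followed by higher IL1B in both lines, by higher IL1RN and IL1RAP in HL-60 cells, and by small differences of opposite sign in IL18RAP. After 30 min in HL-60 cells 1 of the 10 members was called, IL1RN, against 0.877% of all probe sets in that comparison. After 3 h in HL-60 cells 5 of the 10 were called, all higher (IL1B, IL1RN, IL1RAP, IL18RAP and IL36RN), against 3.87% of all probe sets. On every HL-60 array, treated or untreated, the values of IL1RN, IL18RAP and IL36RN were below the background limit. The median log2 difference of the 10 in HL-60 cells at 3 h was 0.58, beside -0.03 over all probe sets. In OCI-AML3 cells 1 of 10 was called after 30 min, IL1B, against 1.07% of all probe sets. At 3 h in that line 2 of 10 were called, IL1B higher and IL18RAP lower, against 1.60%. The members' median difference was 0.24 in OCI-AML3 cells at 30 min and -0.09 at 3 h, beside -0.004 and 0.0007 over all probe sets.

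**Figure D1:**
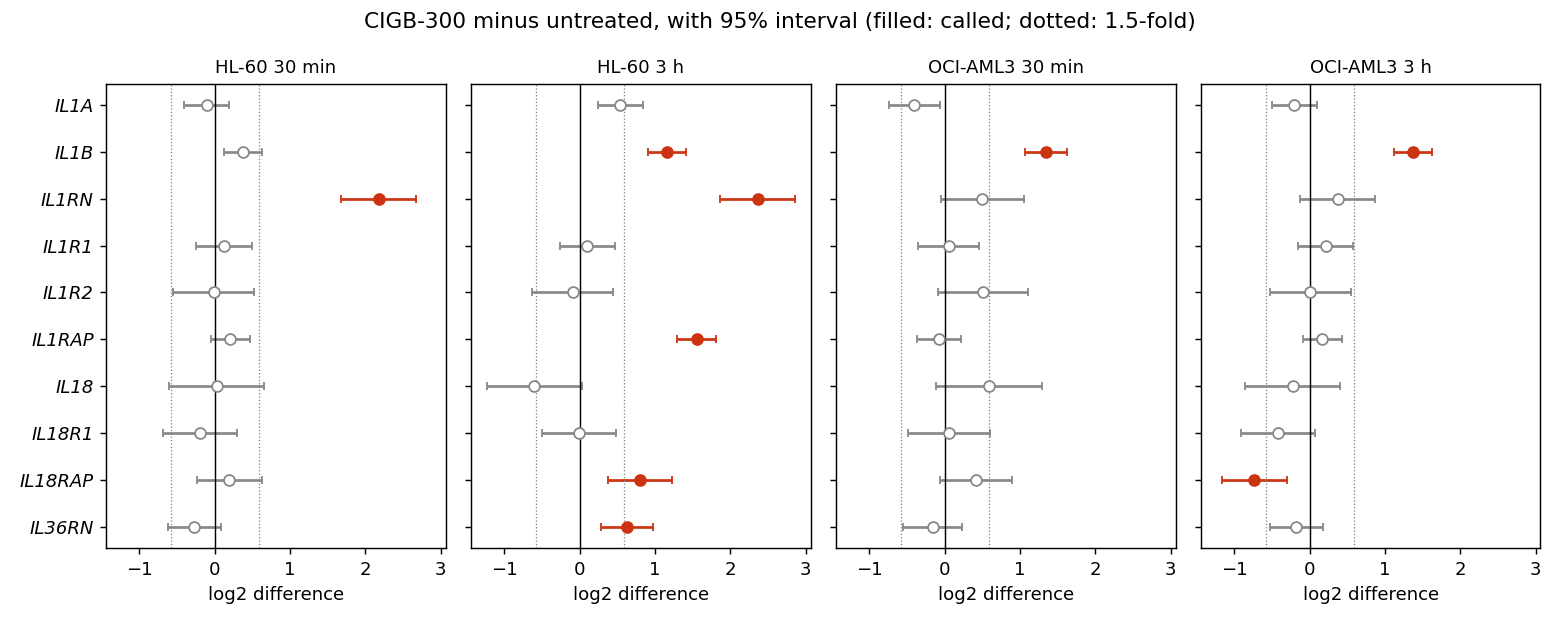
Log2 difference between CIGB-300 and untreated cells (horizontal axis) for the 10 members (vertical axis), 1 panel per cell line and time, with the 95% interval of the limma fit, filled red points for called members and dotted lines at a fold change of 1.5. IL1B stands past the right dotted line in 3 of the 4 panels, IL1RN in both HL-60 panels and IL1RAP in the panel of HL-60 at 3 h.

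Among the ligands, IL1B was the member with a level above background in every group. Its log2 values in untreated HL-60 cells at 30 min were 7.31, 7.87 and 7.40, and those after CIGB-300 were 7.93, 7.91 and 7.87. All treated arrays were above all untreated ones, though replicate 2 of the untreated group lay close to them. At 3 h the untreated values were 7.88, 7.70 and 8.01 and the treated values 8.98, 9.11 and 8.98. The groups did not overlap at that time, and the lowest treated array stood well above the highest untreated one. In untreated OCI-AML3 cells at 30 min the 2 values were 9.71 and 9.79, against 10.98, 11.14 and 11.17 after CIGB-300. The untreated OCI-AML3 values at 3 h were 9.35, 9.43 and 9.30 and the treated ones 10.70, 10.68 and 10.82. Both OCI-AML3 comparisons showed the same separation without overlap. Over all probe sets, groups without overlap made up 12.4% at 30 min and 21.5% at 3 h in HL-60 cells, and 24.1% at 30 min and 16.0% at 3 h in OCI-AML3 cells.

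The IL1B difference was 0.38 ± 0.12 (SE) in HL-60 cells at 30 min, which did not reach the fold limit (adjusted p = 0.411). It was 1.16 ± 0.12 at 3 h, a fold change of 2.23 (adjusted p = 2.84e-06). In OCI-AML3 cells IL1B rose by 1.35 ± 0.13 within 30 min, a fold change of 2.54 (adjusted p = 1.63e-05, and 0.0550 with the arrays of those 2 groups alone), and by 1.37 ± 0.12 at 3 h, a fold change of 2.59 (adjusted p = 1.84e-06). The IL1B response at 30 min was smaller in HL-60 than in OCI-AML3 cells by 0.97 on the log2 scale (SE 0.18, adjusted p = 0.0444), and at 3 h the lines differed by -0.21 with a 95% interval of -0.57 to 0.14. From 30 min to 3 h the response of HL-60 cells grew by 0.78 ± 0.17 (adjusted p = 0.0200), whereas in OCI-AML3 cells it changed by 0.03 with an interval of -0.35 to 0.40. Ordered by mean, the 8 groups ran from untreated HL-60 at 30 min (7.53) through untreated HL-60 at 3 h (7.86) and treated HL-60 at 30 min (7.90), whose neighbours overlapped, to treated HL-60 at 3 h (9.02). The 4 OCI-AML3 groups came next, untreated at 3 h (9.36), untreated at 30 min (9.75), treated at 3 h (10.73) and treated at 30 min (11.10), each apart from its neighbour. The level of IL1B in HL-60 cells after 3 h of CIGB-300 thus stayed below that of every untreated OCI-AML3 array.

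**Figure D2:**
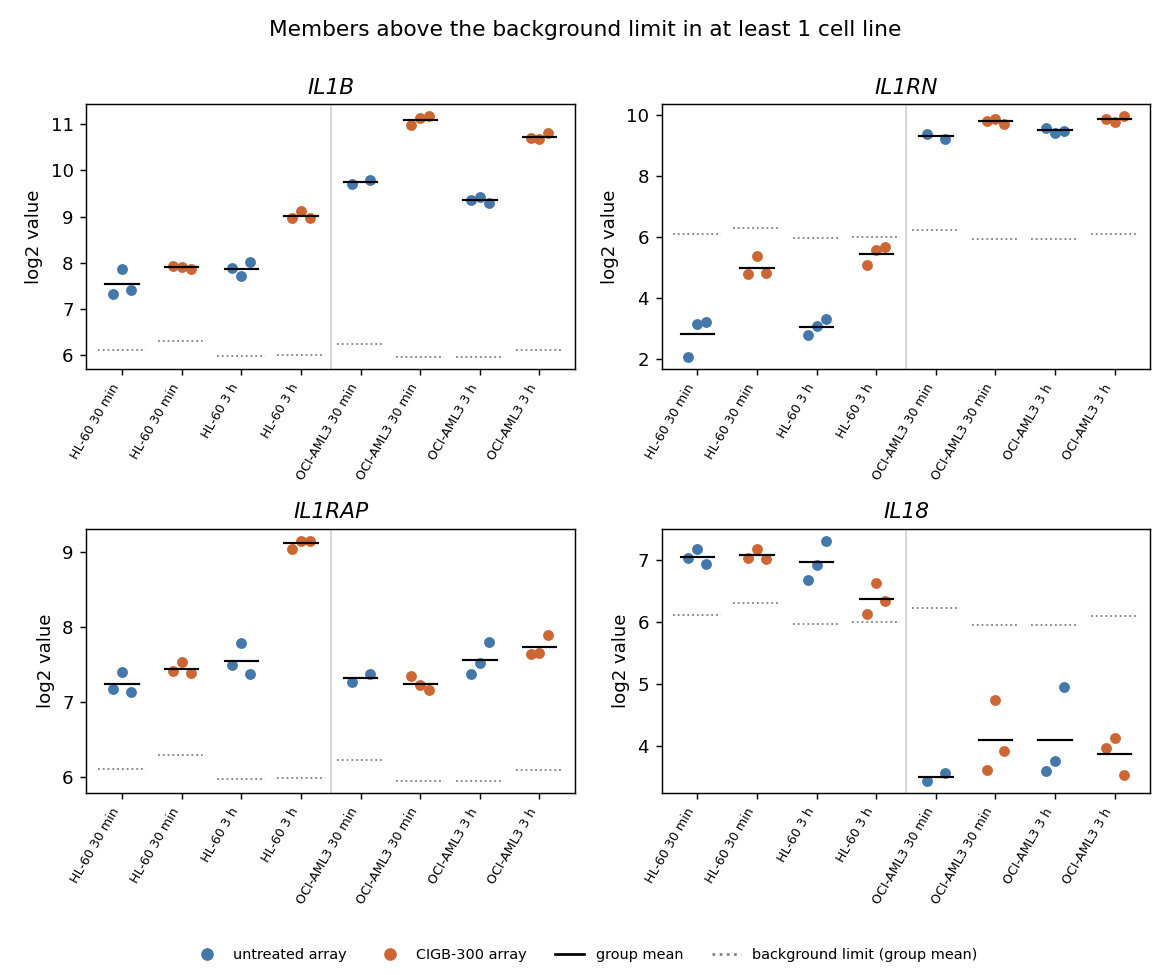
Deposited log2 value (vertical axis) of IL1B, IL1RN, IL1RAP and IL18 on each of the 23 arrays, by cell line and time (horizontal axis), with untreated arrays in blue, CIGB-300 arrays in orange, black bars for group means and dotted bars for the mean background limit of the group. IL1B is higher on the treated arrays of both lines, IL1RAP stands apart in HL-60 at 3 h with values from 9.04 to 9.15, and IL1RN and IL18 are above the limit in opposite lines.

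IL18, the ligand of the IL-18 receptor, was measured above the background limit in HL-60 cells alone. Untreated HL-60 cells gave 7.04, 7.18 and 6.94 at 30 min and 6.68, 6.92 and 7.31 at 3 h. After CIGB-300 the values were 7.03, 7.18 and 7.02 at 30 min, overlapping the controls, and 6.12, 6.63 and 6.35 at 3 h, all below the controls of that time. The difference at 3 h, -0.60 ± 0.30, did not pass the test (unadjusted p = 0.0589, adjusted p = 0.307). Values in the 11 OCI-AML3 arrays ran from 3.44 to 4.96 and overlapped between treated and untreated cells at 3 h. At 30 min the treated values of that line (3.61, 4.74 and 3.93) were above the untreated ones (3.44 and 3.57). That difference of 0.59 ± 0.34, on values under the background limit, was not called (adjusted p = 0.837). IL1A, the other IL-1 ligand, lay between 2.92 and 3.88 on all 23 arrays. In HL-60 cells at 3 h its treated values were 3.80, 3.51 and 3.88, against untreated values of 3.22, 3.42 and 2.95. These do not overlap, and the difference of 0.54 ± 0.14 had an adjusted p of 0.0320 but did not reach the fold limit, on values that were under the background limit in both groups. Without replicate 2 of the treated group (0.65) or of the untreated group (0.65) it passed that limit.

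IL1RN, the IL-1 receptor antagonist, responded in HL-60 cells at both times. Untreated HL-60 values were 2.08, 3.15 and 3.23 at 30 min, against 4.81, 5.38 and 4.82 after CIGB-300. At 3 h they were 2.79, 3.10 and 3.34 untreated, against 5.09, 5.56 and 5.66 treated. No treated array overlapped an untreated one at either time. The log2 difference was 2.18 ± 0.24 after 30 min (adjusted p = 2.49e-05, and 0.146 with the arrays of those 2 groups alone), that after 3 h was 2.36 ± 0.24 (adjusted p = 2.17e-06), and the 2 times differed by 0.18 with a 95% interval of -0.52 to 0.89. Every one of these HL-60 values was below the strict background limit. Against the 23 background features of the same array, 4 to 14 lay below the IL1RN value on the untreated HL-60 arrays and 16 to 19 on the treated ones.

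In OCI-AML3 cells IL1RN was well above background, at 9.38 and 9.20 untreated and 9.80, 9.87 and 9.69 treated at 30 min. The values at 3 h were 9.58, 9.40 and 9.48 untreated and 9.85, 9.77 and 9.94 treated. Treated arrays were above untreated arrays at both times, and the differences of 0.50 ± 0.26 (adjusted p = 0.807) and 0.37 ± 0.24 (adjusted p = 0.607) were not called. The IL1RN response was larger in HL-60 than in OCI-AML3 cells by 1.99 ± 0.33 at 3 h (adjusted p = 0.0030), and by 1.68 ± 0.36 at 30 min, where it was called and had an adjusted p of 0.120. The 2 upper HL-60 groups and the 4 OCI-AML3 groups did not meet, with treated HL-60 cells at 3 h at 5.44 ± 0.30 (SD, n = 3) and untreated OCI-AML3 cells at 30 min at 9.29 ± 0.13 (SD, n = 2).

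IL36RN, the antagonist of the IL-36 receptor, was below the background limit on all 23 arrays, with values from 3.58 to 4.75. In HL-60 cells at 3 h it was called, with 4.57, 4.03 and 4.49 after CIGB-300 against 3.83, 3.81 and 3.58 untreated. The groups did not overlap, and the difference was 0.62 ± 0.17 (adjusted p = 0.0321). Untreated HL-60 cells at 3 h were the lowest of the 8 groups for this gene, at 3.74, and untreated cells at 30 min had 4.02, 4.50 and 4.34, and these overlapped the treated values of 3 h. The call was lost without replicate 1 of the treated group (0.52), without replicate 3 of the treated group (0.56) and without replicate 3 of the untreated group (0.54), since the fold limit is near. In OCI-AML3 cells the differences were -0.16 and -0.18 and the groups overlapped.

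IL1RAP, the accessory chain shared by the receptors of IL-1, IL-33 and IL-36, gave the member difference with the lowest adjusted p in HL-60 cells at 3 h. Untreated values were 7.49, 7.79 and 7.38, and values after CIGB-300 were 9.04, 9.14 and 9.15. The difference was 1.56 ± 0.12, a fold change of 2.94 (adjusted p = 8.70e-08). After 30 min in the same line the values were 7.18, 7.41 and 7.13 untreated and 7.41, 7.54 and 7.39 treated, which overlap (difference 0.21, adjusted p = 0.850). The response at 3 h exceeded that at 30 min by 1.35 ± 0.17 (adjusted p = 0.000174).

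In OCI-AML3 cells IL1RAP was not called at either time. The difference between treated and untreated cells was -0.08 at 30 min, with a 95% interval of -0.37 to 0.21, and 0.16 at 3 h, with an interval of -0.09 to 0.42. At 3 h the response of HL-60 cells exceeded that of OCI-AML3 cells by 1.39 ± 0.17 (adjusted p = 0.000122). Between untreated cells of the 2 lines the difference was -0.08 at 30 min, with an interval of -0.37 to 0.21, and -0.01 at 3 h, with an interval of -0.27 to 0.25. Treated HL-60 cells at 3 h had a mean of 9.11, and the other 7 groups lay between 7.24 and 7.73, with a single gap between neighbours, from 7.32 in untreated OCI-AML3 cells to 7.44 in treated HL-60 cells, both at 30 min.

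The ligand-binding receptor IL1R1 and the decoy IL1R2 were below the background limit on all arrays and were called in none of the 4 comparisons of treatment. IL1R1 lay between 2.91 and 3.72, with differences of 0.05 to 0.21 that had adjusted p-values from 0.721 to 0.993. IL1R2 lay between 2.64 and 4.01. Its difference of 0.51 ± 0.29 in OCI-AML3 cells at 30 min, where the 2 untreated arrays had 2.64 and 2.93 and the treated ones 3.19, 3.26 and 3.44, was not called (adjusted p = 0.829). The IL-18 binding chain IL18R1 lay between 2.55 and 3.81 and was called nowhere. Its lowest difference under treatment was -0.42 ± 0.23 in OCI-AML3 cells at 3 h (adjusted p = 0.536).

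IL18RAP, the accessory chain of the IL-18 receptor, moved in opposite directions in the 2 lines at 3 h, on values near or below the background limit. Untreated HL-60 cells had 4.45, 3.70 and 4.02, and CIGB-300 was followed by 5.09, 5.07 and 4.41, so that the lowest treated array lay just under the highest untreated one. The difference was 0.80 ± 0.20 (adjusted p = 0.0237), and it was called with all 23 arrays fitted but not with the HL-60 3 h arrays alone (adjusted p = 0.223). OCI-AML3 cells had 5.63, 5.76 and 5.92 untreated and 4.89, 5.04 and 5.19 treated. These groups did not overlap, and the difference of -0.73 ± 0.20 met the call (unadjusted p = 0.00194) with an adjusted p of 0.117.

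The OCI-AML3 difference moved with the control. Untreated OCI-AML3 cells had IL18RAP values of 5.14 and 4.94 at 30 min and were higher by 0.73 ± 0.23 at 3 h, a called difference with an adjusted p of 0.160. Set against the untreated cells of 30 min, the treated cells of 3 h differed by -0.01 (adjusted p = 0.995). The call at 3 h was also lost without replicate 1 of the treated group (-0.66) and without replicate 3 of the untreated group (-0.66). The response in HL-60 cells exceeded that in OCI-AML3 cells by 1.54 ± 0.29 at 3 h (adjusted p = 0.00766), a value that rests on the same untreated OCI-AML3 arrays.

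**Figure D3:**
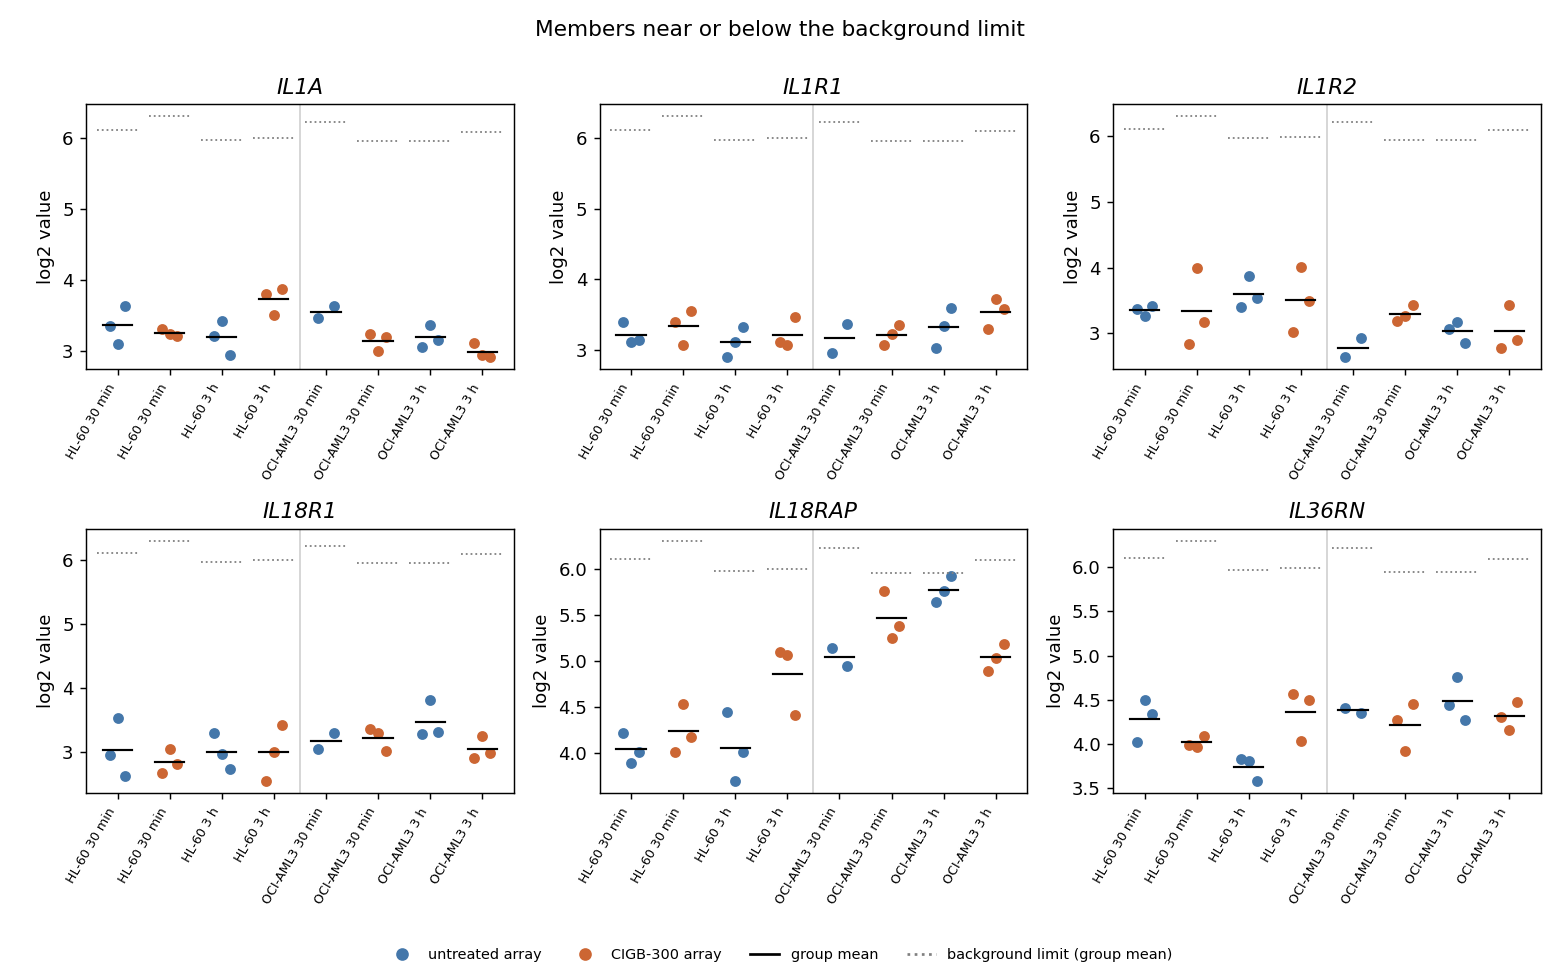
Deposited log2 value (vertical axis) of the 6 members under the background limit on nearly all arrays, by cell line and time (horizontal axis), with untreated arrays in blue, CIGB-300 arrays in orange, black bars for group means and dotted bars for the mean background limit. IL18RAP in untreated OCI-AML3 cells at 3 h comes closest to the limit, with 5.92 on its highest array, and the treated HL-60 arrays of 3 h lie above the untreated ones of that time for IL1A and IL36RN.

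Tests of the difference between lines and times were read over the 10 members. The responses of the 2 lines differed for 2 of 10 members at 30 min (IL1RN larger and IL1B smaller in HL-60), against 1.39% of all probe sets, and for 5 of 10 at 3 h, all larger in HL-60 (IL1A, IL1RN, IL1RAP, IL18RAP and IL36RN), against 2.98%. Of the 5, IL1RN, IL1RAP and IL18RAP had adjusted p-values under 0.05, while IL1A (0.74 ± 0.20) had 0.0923 and IL36RN (0.80 ± 0.24) had 0.126. The IL36RN call was lost without any of 4 arrays, treated replicate 1 and untreated replicate 3 of HL-60, and replicate 2 of either OCI-AML3 group (0.67 to 0.72), and with a variance trend and robust settings (adjusted p = 0.213). The HL-60 difference was called as higher at 3 h than at 30 min for 4 of 10 members, against 3.24% of all probe sets. For IL1B and IL1RAP it was positive at both times. For IL1A (0.65 ± 0.20, adjusted p = 0.150) and IL36RN (0.89 ± 0.24, adjusted p = 0.0709) the sign turned, on values below the background limit. Their differences at 30 min were -0.11 and -0.27, neither called. In untreated HL-60 cells IL36RN was itself lower at 3 h than at 30 min, by a difference of -0.55. The IL1A call was lost without any of 5 arrays, replicate 3 of each of the 4 HL-60 groups and replicate 1 of the treated 3 h group (0.51 to 0.62). It was also lost with the HL-60 arrays fitted alone (adjusted p = 0.304) and with a variance trend and robust settings (adjusted p = 0.275). In OCI-AML3 cells 1 of 10 differed between the times, IL18RAP by -1.15 ± 0.30 (adjusted p = 0.193), against 2.18%. These comparisons reuse the arrays of the 4 comparisons of treatment, so they are not further evidence of those responses.

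Untreated cells of the 2 lines differed in IL1B, IL1RN, IL18 and IL18RAP at both times. At 30 min 4 of 10 members were called between untreated HL-60 and OCI-AML3 cells, against 24.1% of all probe sets, and at 3 h 5 of 10 were, against 25.0%. IL1B was lower in HL-60 cells by 2.23 on the log2 scale at the earlier time (adjusted p = 8.62e-11), and the difference at 3 h was -1.497 (adjusted p = 4.06e-09). IL1RN was at least 9.05-fold higher in OCI-AML3 cells at 30 min and at least 11.4-fold higher at 3 h (adjusted p = 4.39e-13 and 6.62e-14), bounds that put the HL-60 arrays at their background limits. IL18 ran the other way and was higher in HL-60 cells, at least 1.77-fold at the earlier time and at least 2.03-fold at 3 h (adjusted p = 6.36e-08 and 2.08e-07). For IL1RN and IL18 these p-values are those of limma for the differences in deposited values, and the bounds themselves were not tested. IL18RAP was lower in HL-60 cells, by 1.00 on the log2 scale at the earlier time (adjusted p = 0.00156) and by 1.72 after 3 h (adjusted p = 1.04e-06), and IL36RN by 0.75 at 3 h (adjusted p = 0.00117). Centring every array on its median would shift all differences between the lines by 0.13 and changed none of these calls.

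Few members were called between 30 min and 3 h in untreated cells, as were few probe sets of any kind. The counts thus show no trait of the members. Of the 10, none was called in untreated HL-60 cells, against 1.5% of all probe sets by limma. An unadjusted p under 0.05 was found for 3 of the 10 in HL-60 cells (IL1B, IL1RAP and IL36RN) and for 3 in OCI-AML3 cells (IL1A, IL1B and IL18RAP). No share of all probe sets was taken at that limit. In HL-60 cells IL36RN, at -0.55 ± 0.17, would pass the fold limit without replicate 1 of the 30 min group (-0.68) or without replicate 1 of the 3 h group (-0.59). In untreated OCI-AML3 cells 1 was called, IL18RAP, against 2.01%, and that call was lost without replicate 2 or 3 of the 3 h group and without either array of the 30 min group (0.63 to 0.83). IL1B fell short of the fold limit in both, with 0.34 ± 0.12 in HL-60 (adjusted p = 0.228) and -0.39 ± 0.13 in OCI-AML3 cells (adjusted p = 0.205).

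The other genes of the pathway were read from 4 lists. Of the 12 further family genes, among them IL33, IL37, the IL-36 ligands and the IL-18 binding protein gene IL18BP, none was called in any of the 4 comparisons of treatment, with medians from -0.04 to 0.16. None of the 14 measured genes of receptor-proximal signaling, such as MYD88, IRAK2, TRAF6 and MAP3K7, was called either. In HL-60 cells at 3 h TRAF6 (-0.46 ± 0.12, adjusted p = 0.0332) and PELI2 (-0.53 ± 0.14, adjusted p = 0.0315) were lower but did not reach the fold limit. Of the 18 measured genes of the inflammasome and of cytokine processing, 1 was called, NINJ1 in HL-60 cells at 3 h (0.83 ± 0.10, adjusted p = 1.23e-05), which encodes a protein of plasma membrane rupture. The median of that list was -0.22 in HL-60 cells at 3 h, beside -0.03 over all probe sets. The called share of all probe sets was 0.877% at the earlier and 3.87% at the later time in HL-60. In OCI-AML3 it was 1.07% and 1.60%. At such shares, lists of 12 to 18 genes would hold few calls or none, whatever their genes. The low counts thus show no trait of these lists.

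The last list held genes commonly induced by IL-1. Of 12 measured, 3 rose in HL-60 cells at 30 min, 6 in HL-60 cells at 3 h, 4 in OCI-AML3 cells at 30 min and 8 in OCI-AML3 cells at 3 h, and none was called lower. Over all probe sets 0.877%, 3.87%, 1.07% and 1.60% were called in these comparisons, and this list, like the others, was chosen with earlier results of these data known. Their median differences were 0.40, 1.10, 0.48 and 0.79. In HL-60 cells at 3 h the chemokine genes CCL2 and CCL20 rose by 5.21 ± 0.14 (adjusted p = 2.35e-14) and 4.10 ± 0.30 (adjusted p = 2.93e-08). NFKBIA, which encodes the NF-kB inhibitor IkB alpha, rose by 2.92 ± 0.13 (adjusted p = 1.21e-11) and the neutrophil chemoattractant gene CXCL8 by 2.19 ± 0.19 (adjusted p = 2.78e-07). At 30 min in that line CCL2 rose by 2.93 ± 0.14 (adjusted p = 2.40e-10), CXCL8 by 1.79 ± 0.19 (adjusted p = 1.76e-05) and NFKBIA by 1.19 ± 0.13 (adjusted p = 1.88e-05).

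In OCI-AML3 cells the differences of this list at 3 h were led by those of TNFAIP3, which encodes the deubiquitinase A20 (1.10 ± 0.12, adjusted p = 5.36e-05), of the NF-kB cofactor gene NFKBIZ (1.09 ± 0.12, adjusted p = 2.98e-05), of PTGS2 (1.08 ± 0.31, adjusted p = 0.134) and of CXCL8 (1.08 ± 0.19, adjusted p = 0.00591). At 30 min PTGS2 (1.01 ± 0.35, adjusted p = 0.532), CXCL8 (0.94 ± 0.21, adjusted p = 0.115), CCL2 (0.85 ± 0.16, adjusted p = 0.0314) and NFKBIZ (0.82 ± 0.13, adjusted p = 0.00749) were called. Tested between the lines at 3 h, against 2.98% of all probe sets called, 6 of the 12 responses were larger in HL-60 cells and 1 was larger in OCI-AML3 cells, NFKBIZ, by 0.95 on the log2 scale (difference HL-60 minus OCI-AML3 -0.95 ± 0.17, adjusted p = 0.00416).

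**Figure D4:**
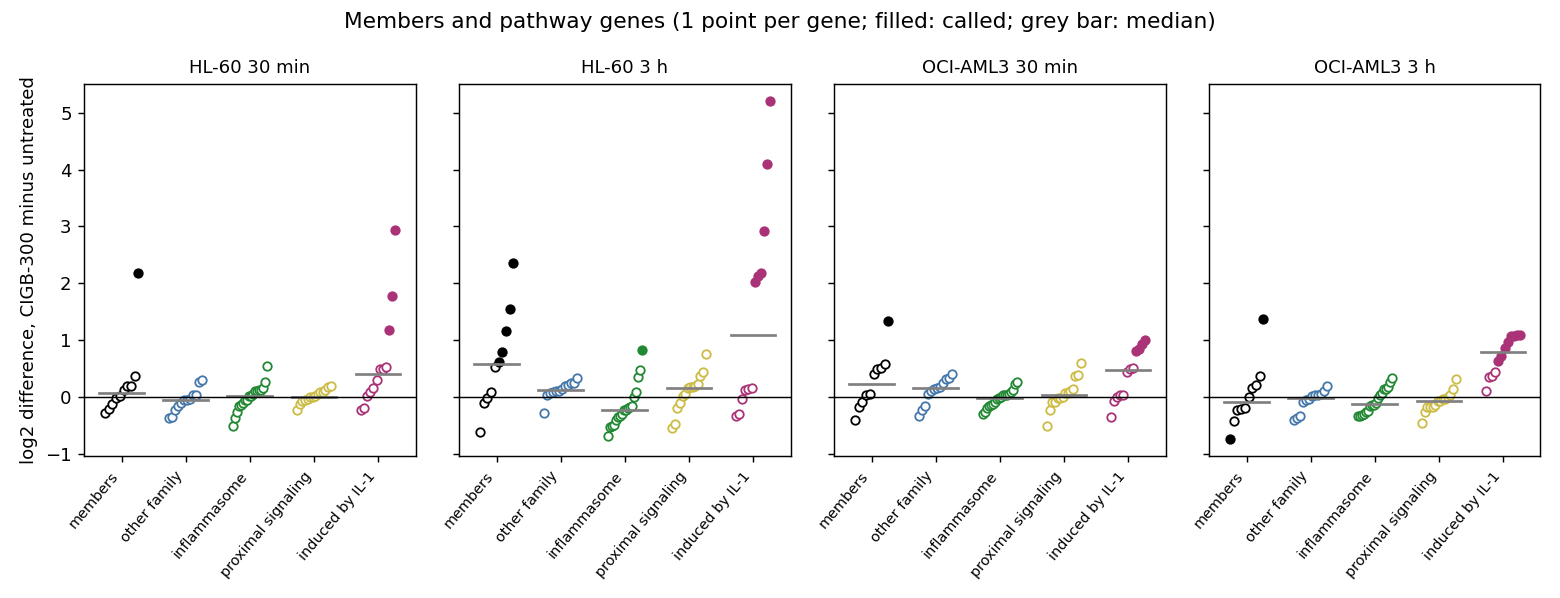
Log2 difference between CIGB-300 and untreated cells (vertical axis) for each gene of the 10 members and of the 4 pathway lists (horizontal axis), 1 panel per cell line and time, with filled points for called genes and grey bars for list medians. The genes commonly induced by IL-1 reach 5.21 in HL-60 at 3 h, and the other family genes and the receptor-proximal genes hold no filled point in any panel.

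Likeness of pattern was measured as Pearson's r between the 8 group means of a member and of a gene, centred within each line, among the 1143 probe sets with 1 symbol called in at least 1 of the 4 comparisons of treatment. The groups share their arrays and the candidates were called on these data, so r is a description. IL1B was closest to YOD1 (0.931), IER3 (0.914) and PHLDA1 (0.912). IL1RN was closest to GPR18 (0.969), NFKBID (0.962) and F3 (0.962), and IL1RAP to CFLAR (0.996), OLR1 (0.992) and IFNGR2 (0.991). IL18RAP was closest to CD82 (0.868), MAG (0.867) and IL13RA1 (0.861), and IL36RN to REPIN1 (0.896), ITPKB (0.893) and TCEAL5 (0.892). No gene was named for more than 1 member.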

How the data were processed

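The 23 arrays measure RNA of both cell lines. The authors corrected the background by RMA, normalized quantiles across arrays, fitted a robust model per probe set and averaged technical replicate arrays, which gave the deposited log2 values. The genome build, the annotation release and the versions of RMA and limma were not given in the sources used here. After 5741 control features were dropped from the 27189 on the array, 21448 probe sets entered the tests, 17709 of them with 1 symbol. The values of all arrays were fitted together in limma 3.58.1 (R 4.3.3), with a mean for each group and eBayes at its defaults, and adjusted p-values are those of Benjamini-Hochberg over all probe sets. Calls needed p under 0.01 before adjustment and at least a 1.5-fold change. The labels call the replicates biological and do not say whether they came from separate cultures, so p-values measure the spread between these samples. The number of arrays limits the precision. All 10 members are named, with at most 4 called genes each way from each pathway list and the 3 genes of most like pattern. Some list genes that were not called are named too. Members and lists were chosen with earlier results of these data known. Of the lists, 7 gene symbols were not matched to a probe set (NLRP1, IRAK1, IRAK3, IRAK4, TAB1, ZC3H12A and SOD2), as were 7 marker symbols. Erythroid markers (0 of 2 in both lines) were below the background limit on all arrays, as were 3 of 4 epithelial and fibroblast markers, KRT8 being above it on some. The promoter windows were searched in Python 3.11.15 (pandas 2.3.3) and plots were drawn with matplotlib 3.10.9.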

Additional observations from a re-analysis of the deposited data

Results flagged for a closer look

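The response to CIGB-300 differed between the lines, or between the times in HL-60 cells, in 6 tests of the difference itself with an adjusted p under 0.05 (limma). For IL1B the HL-60 response minus the OCI-AML3 response was -0.97 at 30 min (adjusted p = 0.0444). At 3 h that difference was 1.99 for IL1RN (adjusted p = 0.0030), 1.39 for IL1RAP (adjusted p = 0.000122) and 1.54 for IL18RAP (adjusted p = 0.00766). Within HL-60 cells the response at 3 h minus that at 30 min was 0.78 for IL1B (adjusted p = 0.0200) and 1.35 for IL1RAP (adjusted p = 0.000174). With only the arrays of the groups compared, the adjusted p was 0.304 for IL1B between lines, 0.0510 for IL18RAP between lines and 0.136 for IL1B between times, while those for IL1RN and IL1RAP stayed under 0.05. Over all alternatives, those that leave out 1 array included, it ran from 0.000841 to 0.304 for IL1B between lines and from 0.00122 to 0.136 for IL1B between times, with the unadjusted call kept in each. The IL1RN values of HL-60 cells behind these tests were under the background limit. So were the IL18RAP values of both lines, apart from 1 untreated OCI-AML3 array. With untreated cells of 30 min as the control, the OCI-AML3 part of the IL18RAP difference was -0.01 (adjusted p = 0.995). No group has more than 3 arrays, so single arrays were not tested as outliers.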

How the results depend on the processing

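No called member changed direction under any alternative. With arrays of the compared groups alone, variance trend and robust settings, array weights or median centring, every count of called members stayed within 1.5 times its value with all arrays, although single calls (IL18RAP in HL-60 at 3 h, IL1A between times in HL-60, IL36RN between lines at 3 h) were lost under 1 or more of the first 2. With the replicate number as a block, the count for untreated OCI-AML3 cells over time went from 1 to 0, and it changed no other member's call. Arrays of the same number deviated together only weakly (r from -0.0145 to 0.081 over 11 pairs, none over 0.1), so the numbers were not taken to pair samples. Of 23 arrays, 13 correlated best with an array of their own number. Whether that count exceeds the one without pairing was not tested. A filter at the array median kept 12044 probe sets and 5 members, and the count for the difference between lines at 3 h became 3 and that between times in HL-60 cells 2. A filter at the background limit kept 10650 probe sets and 4 members, and the counts became 3 in HL-60 at 3 h, 1 in OCI-AML3 at 3 h, 2 between lines at 3 h, 2 between times in HL-60, 0 between times in OCI-AML3, 0 in untreated OCI-AML3 over time and 3 between untreated lines at 3 h. These filters remove members from the count, and each kept a probe set that passed in at least 1 of the 8 groups. IL1RN passed the background limit through OCI-AML3 cells alone, with 0 of 12 HL-60 arrays above it. IL1RN is still among the 3 of HL-60 at 3 h and the 2 between lines at 3 h, and it is the 1 called in HL-60 at 30 min. IL18 passed that limit through HL-60 cells alone, with 0 of 11 OCI-AML3 arrays above it. Both are among the 3 between untreated lines, each kept through the line where it is high, so that count is no support for a difference between the lines. IL18RAP passed the median filter through OCI-AML3 cells, its highest HL-60 group mean being 4.86. With an adjusted p under 0.05, with or without the fold limit, the counts became 1 in OCI-AML3 at 3 h, 1 between lines at 30 min, 3 between lines at 3 h, 2 between times in HL-60, 0 between times in OCI-AML3 and 0 in untreated OCI-AML3 over time. With untreated cells of 30 min as the control, 1 member was called in OCI-AML3 at 3 h. Without 1 array at a time the counts ran from 1 to 1 in HL-60 at 30 min, 4 to 6 in HL-60 at 3 h, 1 to 1 in OCI-AML3 at 30 min, 1 to 2 in OCI-AML3 at 3 h, 2 to 2 and 4 to 5 between lines at 30 min and 3 h, 3 to 4 between times in HL-60, 1 to 1 in OCI-AML3, 0 to 1 in untreated cells of each line over time, and 4 to 4 and 5 to 5 between untreated lines. Where this left 1 untreated OCI-AML3 array at 30 min, the fit took its spread from the other groups. Taking the probe set of lowest mean gave nothing new, since each member has 1. Signal over background limits what can be read for the 5 members under the limit on all arrays. The same holds for IL1RN in HL-60 cells, for IL18 in OCI-AML3 cells and for IL18RAP in both lines.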
